A study of Mus musculus with 1989 samples.

Results

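The genes described here are 9 genes for calcium-binding, lectin, LIM-domain and cytoskeletal proteins: S100a4, S100a6, S100a10, S100a11, S100a13, Lgals1, Anxa2, Crip1 and Vim. All 9 were found among the 8846 genes of the scRNA-seq table. They were chosen from measured values, because Crip1, Lgals1 and S100a6 lead different groups of cells, so their levels are described here and carry no test. Thymocytes of 7-week-old male C57BL/6 mice, an inbred strain with no allele or agent named in the labels, were profiled by droplet scRNA-seq in 1 library of 1993 cells. They were also profiled by scATAC-seq, in which 182 cells were sorted as DN (CD4-CD8-), 125 as DP (CD4+CD8+), 119 as CD4 and 116 as CD8, and 1084 further cells used here were total thymocytes with a plate number in their name. The labels tie no cell to an animal, and the library and each sort therefore count as 1 sample. SDs are spreads over cells, and intervals are exact 95% intervals that cover counting error only.

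S100 proteins are small EF-hand proteins that change shape when they bind calcium and then attach to other proteins. S100a10 is the exception that does not bind calcium and forms a complex with annexin A2, the product of Anxa2, a protein that binds membranes. Lgals1 encodes galectin-1, a lectin that binds β-galactosides and has long been studied in thymocytes. Crip1 encodes a small protein made up mainly of a LIM domain, and Vim encodes vimentin, the intermediate filament protein of lymphocytes and mesenchymal cells. In T cells, S100a4, S100a6, Lgals1, Anxa2, Crip1 and Vim are commonly listed together among genes of effector and memory cells.

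The 5 S100 genes lie in 2 groups on chromosome 3 of GRCm38, all on the plus strand. S100a13 starts at position 90514435, S100a4 at 90603771 and S100a6 at 90612882, so the starts of S100a4 and S100a6 are 9111 bp apart. S100a11 starts at 93520488 and S100a10 34592 bp further on, with no other protein-coding start between them. The other members are on separate chromosomes, Vim at chr2:13573927-13582826, Anxa2 at chr9:69453620-69491795, Crip1 at chr12:113146316-113153879 and Lgals1 at chr15:78926725-78930465. For Crip1 the start of the principal transcript, 113152012, was used, because the annotated gene reaches further upstream. RefSeq promoters on GRCm38.p6 matched 7 members (S100a4, S100a6, S100a11, S100a13, Anxa2, Crip1 and Vim), and S100a10 and Lgals1 had no entry.

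The 250 bases before the RefSeq start are given for 4 members, 3 S100 genes that share their top clusters and Crip1, whose top cluster differs, namely S100a4 (chr3:90603520-90603769), its neighbour S100a6 (chr3:90612644-90612893), S100a11 (chr3:93520246-93520495) and Crip1 (chr12:113151762-113152011), all on the plus strand and read 5′ to 3′. Capitals mark a match, on either strand, to TATAAA (the TATA box), CCACCC (letters bound by Krüppel-like factors), TGANTCA (by AP-1), TGTGGT (by Runx factors) or CANNTG (the E-box).
S100a4: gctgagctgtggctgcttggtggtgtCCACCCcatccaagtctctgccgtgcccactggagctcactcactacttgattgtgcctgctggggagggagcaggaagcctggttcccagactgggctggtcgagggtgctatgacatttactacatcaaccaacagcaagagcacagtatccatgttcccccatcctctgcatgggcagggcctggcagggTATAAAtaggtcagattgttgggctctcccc
S100a6: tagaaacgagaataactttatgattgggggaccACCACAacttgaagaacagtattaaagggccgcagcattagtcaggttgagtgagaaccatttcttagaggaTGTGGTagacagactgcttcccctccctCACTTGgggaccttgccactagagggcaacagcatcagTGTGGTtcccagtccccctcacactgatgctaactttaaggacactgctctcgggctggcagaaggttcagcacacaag
S100a11: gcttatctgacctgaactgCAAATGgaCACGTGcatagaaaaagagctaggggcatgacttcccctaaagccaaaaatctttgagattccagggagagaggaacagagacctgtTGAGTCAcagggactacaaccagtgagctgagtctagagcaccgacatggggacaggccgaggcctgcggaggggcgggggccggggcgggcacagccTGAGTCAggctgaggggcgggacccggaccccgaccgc
Crip1: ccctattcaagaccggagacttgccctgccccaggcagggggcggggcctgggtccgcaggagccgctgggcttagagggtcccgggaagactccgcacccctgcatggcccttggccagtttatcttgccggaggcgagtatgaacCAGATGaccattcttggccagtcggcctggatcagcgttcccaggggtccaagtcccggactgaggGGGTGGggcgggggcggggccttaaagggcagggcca
S100a4 held a TATAAA whose first base was 31 bases before the start. S100a6, in contrast, held no TATAAA and 3 TGTGGT. S100a11 held 2 TGANTCA, and Crip1 held 1 CCACCC and 1 CANNTG. Among 32851 RefSeq promoters of the same length, 12.4% held TATAAA, 28.1% CCACCC, 6.75% TGANTCA, 14% TGTGGT and 66.2% CANNTG. CG pairs numbered 2 in S100a4, 3 in S100a6, 11 in S100a11 and 13 in Crip1, against a median of 6 over those promoters. A match is a description of the letters and not a binding site.

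Cells were placed in 17 rebuilt clusters, which are not those of the study: its variable-gene limits, number of principal components and resolution were used in a later version of Seurat, and all 1993 cells were kept, 7 of them with more than 4500 detected genes. A cluster was named after a cell class only where the marker genes of that class scored highest by at least 0.1 and its leading genes did not hold more markers of other classes than of its own. This gave DN-like cluster 12, ISP-like (immature single-positive) cluster 10, DPbla-like (blast) clusters 3 and 11, DPre-like (rearranging) cluster 2, DPsel-like (selected) clusters 4 and 5, CD4sp-like cluster 7, NCL-like (nonconventional lymphocyte) cluster 17 and APC-like (antigen-presenting cell) cluster 16. Cluster 4 scored 1.84 for DPsel and 1.69 for CD4sp, so its name is a near call. Its leading genes held the CD4sp markers Cd40lg and Il7r. CD4sp-like cluster 7 scored lower for CD4sp, at 0.90, and held 0 CD4sp markers among its 10 leading genes. The names of clusters 4 and 7 are therefore uncertain wherever they are compared below. The other 7 clusters were left without a name. Of these, cluster 1 (led by Tubb2b) and cluster 9 (Hist1h2bc) scored highest for DPre, cluster 8 (Nkg7, Runx3) for CD8sp and cluster 14 (Tnfrsf9, Tnfrsf4) for DPsel, whereas clusters 6, 13 and 15, whose scores lay close together or were low, were led by genes of dividing cells such as Hells, Cdc20 and Kpna2. Expression of Mki67, a gene of dividing cells, was above 0 in at least 50% of cells in clusters 3, 6, 10, 11, 13 and 15, called cycling below. Depth differed with class, so each cell was also thinned at random to 1300 steps. A step is one place in the ordered series of different values found in a cell, 0 being none, and stands in for a count. The median number of steps per cell ran from 1886 in cluster 1 to 12795 in cluster 15. Of the members, 6 (S100a4, S100a6, S100a11, Lgals1, Anxa2 and Vim) were among the variable genes that defined the clusters, and rebuilding the clusters without any member or relative left the cluster with the highest mean unchanged for all 9. With thinned values the top cluster of S100a13 was 5 in place of 13. By the share of cells with a value above 1, that of Lgals1 was 13 in place of 9 and that of Vim 17 in place of 7. For Crip1 this share ranks no cluster first. All cells of clusters 10 and 12, among others, were above 1, with lowest values of 1.908 and 2.155.

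**Figure D1:**
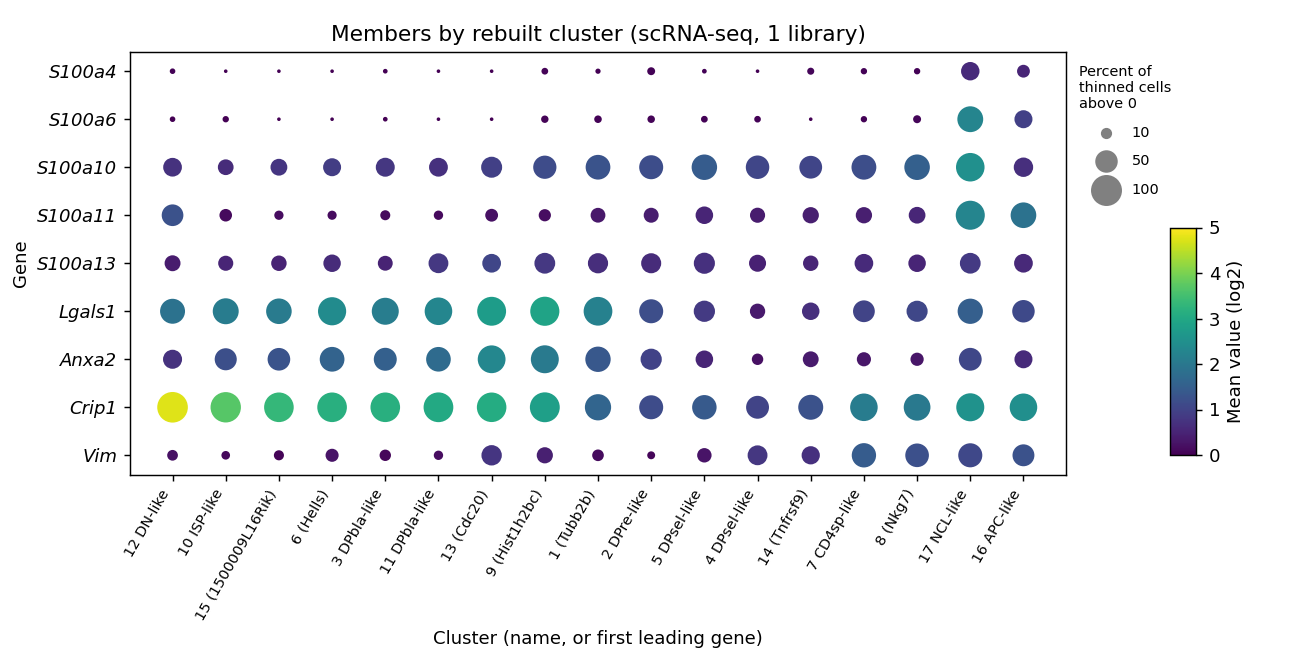
Mean log2 value (color) and percent of cells above 0 after thinning (dot area) for the 9 members (rows) in the 17 rebuilt clusters (columns, ordered roughly from early to mature cells, with the 2 clusters that are not conventional thymocytes last). S100a4 and S100a6 stand out only in clusters 17 and 16, Crip1 has its highest mean in cluster 12 at 4.76, and Vim is highest on the right.

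S100a6 and S100a4, which encode small cytoplasmic calcium sensors, had their highest means and shares of cells in NCL-like and APC-like clusters. The mean log2 value of S100a6 was 2.27 ± 1.58 (SD over 31 cells) in cluster 17 and 0.96 ± 1.40 (36 cells) in cluster 16, and lay between 0 and 0.07 in the other 15 clusters. The values of single NCL-like cells ran from 0 through a median of 2.62 to 4.52. After thinning, 67.7% of NCL-like cells (48.6 to 83.3) and 30.6% of APC-like cells (16.4 to 48.1) were above 0, whereas the other clusters had 4.08% at most. S100a6 was among the 10 leading genes of cluster 17 and among the genes used to cluster, so this order is a description. From the third place on, the interval of each cluster overlapped that of the next. For the other 8 members this held for all neighbours in the order.

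S100a4 had the same 2 clusters at the top with lower shares. Its mean log2 value was 0.59 ± 0.87 in NCL-like and 0.52 ± 1.18 in APC-like cells, against 0.07 at most elsewhere, and its thinned shares were 32.3% (16.7 to 51.4) and 13.9% (4.67 to 29.5). These intervals overlapped. In DPsel-like cluster 4 it was above 0 in 0 of 171 cells (0 to 2.13%), an interval for cells with a value and not for cells that express the gene. Genes of other cell types were read in the 15 clusters other than 16 and 17, at the same 1300 steps per cell, as a guide to free RNA. Lyz2, a myeloid gene, was above 0 in 1.54 to 10.3% of their thinned cells, Tyrobp in 0 to 4.73%, the antigen-presentation genes Cd74 in 3.06 to 24.3% and H2-Ab1 in 5.26 to 22.9%, and Cst3, a gene of dendritic cells and macrophages, in 24.5 to 42.9%. Whether thymocytes express Cst3, and how much free RNA adds to the shares of the members, was not tested. In those 15 clusters the thinned share of S100a4 was 4% at most. In cluster 17 Cst3 was at 32.3%, the share of S100a4 itself, Cd74 and Lyz2 were at 6.45%, Tyrobp, which natural killer cells also express, at 16.1% and Cd79a, a B cell gene, at 0%. Cd8b1, a coreceptor gene of thymocytes, was above 0 in 45.2% of NCL-like and 72.2% of APC-like cells, and its part in these values was not tested.

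The 20 cells with the most steps of S100a4 and S100a6 together comprised 12 NCL-like cells, 6 APC-like cells and 2 others. The top cell, in cluster 16, had 33 steps of S100a4 and 30 of S100a6, whereas no cell outside clusters 16 and 17 had more than 8 and 6. APC-like cells were not uniform. Among the 21 without Cd79a after thinning, S100a6 was above 0 in 10 and S100a4 in 5, and among the 15 with Cd79a, S100a6 was above 0 in 1 and S100a4 in 0. The intervals of these shares overlapped (25.7 to 70.2% against 0.169 to 32% for S100a6). In the same cluster all 5 cells with S100a4 were among the 11 with S100a6, 45.5% (16.8 to 76.6), whereas 0 of the 25 cells without S100a6 had S100a4 (0 to 13.7%), the only pair of members with intervals apart among 170 pairs examined within classes.

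**Figure D2:**
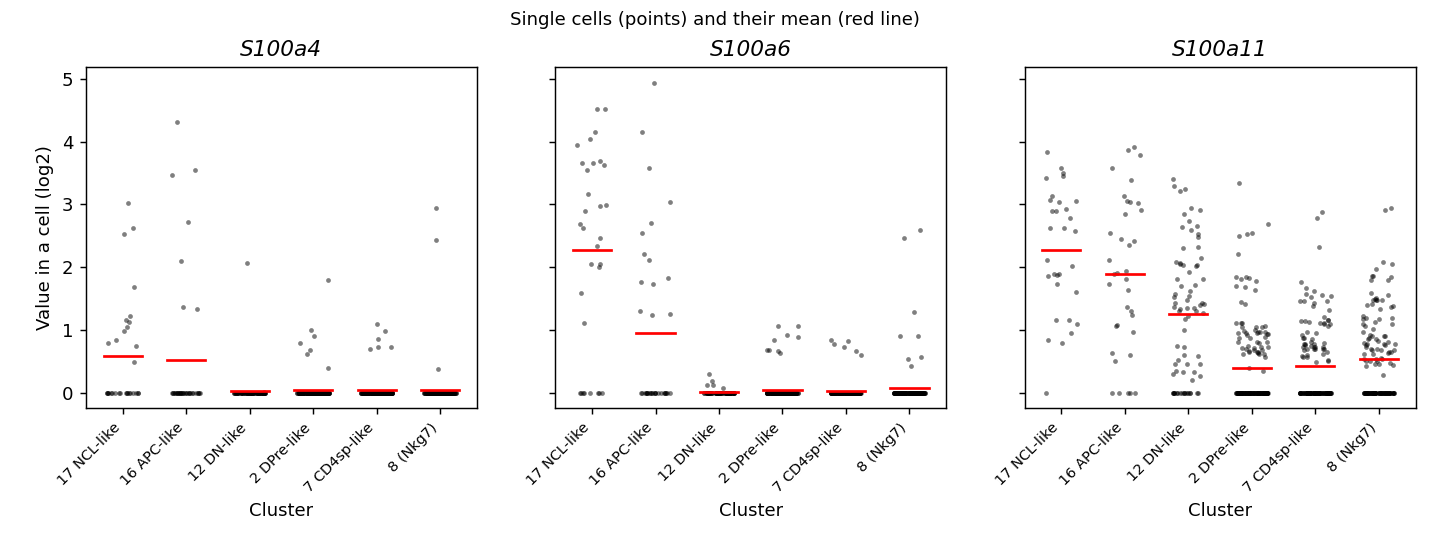
Log2 values of S100a4, S100a6 and S100a11 in single cells (points) with their mean (red line) in 6 clusters. S100a4 and S100a6 are above 0 in few cells outside clusters 17 and 16, while S100a11 is also high in DN-like cluster 12, with a mean of 1.25.

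S100a11, whose product binds annexin A1 among others, was also high in DN-like cells. Its mean log2 value was 2.27 ± 0.99 in NCL-like, 1.89 ± 1.22 in APC-like and 1.25 ± 1.03 in DN-like cells, and between 0.13 and 0.53 in the other 14 clusters. The thinned shares were 87.1% (70.2 to 96.4), 66.7% (49 to 81.4) and 46.2% (34.8 to 57.8). Cycling clusters together were at 8.42% of 653 cells (6.41 to 10.8), and the CD4sp-like cluster was at 24.3% (17.7 to 32). Within DN-like cells, S100a11 was above 0 in 56.2% of 48 cells with Il2ra, the receptor chain that marks DN2 and DN3 cells, and in 30% of 30 cells without it, with overlapping intervals (41.2 to 70.5 and 14.7 to 49.4).

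S100a10 had its highest mean in NCL-like cells and its lowest in ISP-like cells. Its mean log2 value was 2.49 ± 1.11 in NCL-like cells, 1.51 ± 0.95 in cluster 8 and 1.43 ± 1.01 in DPsel-like cluster 5, against 0.62 ± 0.61 in ISP-like cells. After thinning it was above 0 in 83.9% of NCL-like cells (66.3 to 94.6), 64.1% of the 295 cells of clusters 7 and 8 (58.3 to 69.6), 57.7% of DPre-like cells (50 to 65.1) and 31.7% of cycling cells (28.1 to 35.4). Without thinning the cycling cells were at 80.9% and the DPre-like cells at 72.6%, the opposite order to the thinned shares, whereas the mean log2 values, 0.79 and 1.16, kept the order of the thinned shares. The means of S100a13, a member linked to the release of proteins without a signal peptide, ran from 0.39 in DN-like cells to 1.05 in cluster 13 and its thinned shares from 19.8% in DPbla-like cluster 3 (14.1 to 26.5) to 43.6% in DPsel-like cluster 5 (35.8 to 51.5). The intervals of clusters 3 and 5 did not overlap. Cst3 was at 24.5 to 42.9% outside clusters 16 and 17, and the part of free RNA in the S100a13 shares was not tested.

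Lgals1 and Anxa2 shared a pattern across the clusters. Lgals1 had a mean log2 value of 2.90 ± 1.00 in cluster 9 and 2.75 ± 0.84 in cluster 13, and Anxa2 had 2.04 ± 0.97 and 2.30 ± 0.72 in the same clusters. Both clusters were led by genes of late cell division such as Cenpa and Ccnb2, and Anxa2 and Lgals1 were themselves among the 10 leading genes of cluster 9. Both genes were lower in cluster 2 (1.19 ± 1.02 and 0.99 ± 1.03), lower again in DPsel-like cluster 5 (0.85 ± 0.98 and 0.52 ± 0.71) and lowest in DPsel-like cluster 4 (0.35 ± 0.62 and 0.20 ± 0.43). The thinned share of Lgals1 was 87.6% in cluster 9 (80.4 to 92.9) and 21.1% in cluster 4 (15.2 to 27.9), and that of Anxa2 80.2% (71.9 to 86.9) and 10.5% (6.36 to 16.1).

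In CD4sp-like cluster 7 and unnamed cluster 8 the 2 genes parted. Lgals1 was above 0 in 46.6% (38.4 to 55) of cells in cluster 7 and 43.5% (35.4 to 52) in cluster 8, above cluster 4, whereas Anxa2 was at 17.6% (11.8 to 24.7) and 15% (9.62 to 21.8), intervals that overlapped that of cluster 4. Over the 17 cluster means of this library the Pearson r of Lgals1 and Anxa2 was 0.935, and 0.926 for thinned means, a description of clusters that share 1 library and differ in depth. In none of the 6 classes examined did the share of Lgals1 in cells with and without Anxa2 have intervals apart. Cycling cells, the most numerous, had it in 79.1% of 378 cells with Anxa2 (74.7 to 83.1) and 72% of 275 without (66.3 to 77.2).

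Crip1 had its highest values in DN-like cells, with a mean log2 value of 4.76 ± 0.88 and a thinned share of 97.4% (91 to 99.7). ISP-like cells followed with 3.68 ± 0.78 and the other cycling clusters lay between 3.02 and 3.34. The level was lower in cluster 1 (1.62 ± 1.10), in DPre-like cluster 2 (1.13 ± 0.95) and in DPsel-like cluster 4 (1.01 ± 0.99), and higher again in cluster 7 (2.09 ± 1.35) and cluster 8 (2.02 ± 1.31). The thinned shares had the same low point, 91.6% of cycling cells (89.2 to 93.6), 57.7% of DPre-like cells (50 to 65.1), 52% of cluster 4 (44.3 to 59.7) and 75.3% of clusters 7 and 8 (69.9 to 80.1). Cluster 8 alone was at 72.8% (64.8 to 79.8), which overlapped cluster 2.

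Vim had its highest mean in cluster 7, and its r with Lgals1 and Anxa2 over the 17 cluster means was -0.469 and -0.464. It was low in DPre-like cluster 2, at 0.06 ± 0.23 and 4% of thinned cells (1.62 to 8.07), and reached 0.27 ± 0.54 in cluster 5, 0.80 ± 0.90 in cluster 4, 1.44 ± 1.14 in cluster 7 and 1.22 ± 1.13 in cluster 8. APC-like cells were at 1.25 ± 1.31 and NCL-like cells at 1.08 ± 0.86, with thinned shares of 47.2% (30.4 to 64.5) and 58.1% (39.1 to 75.4). The thinned share in clusters 7 and 8 together was 57.6% (51.8 to 63.3). Clusters 13 and 9 also held it, with 40.3% (28.9 to 52.5) and 24% (16.7 to 32.6). Within clusters 7 and 8, Vim was above 0 in 65.4% of 182 cells with Klf2, a transcription factor of mature thymocytes ready to leave (58 to 72.3), and in 45.1% of 113 cells without it (35.8 to 54.8). Among 153 splits of members by context genes, 2 had intervals apart, this one included.

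**Figure D3:**
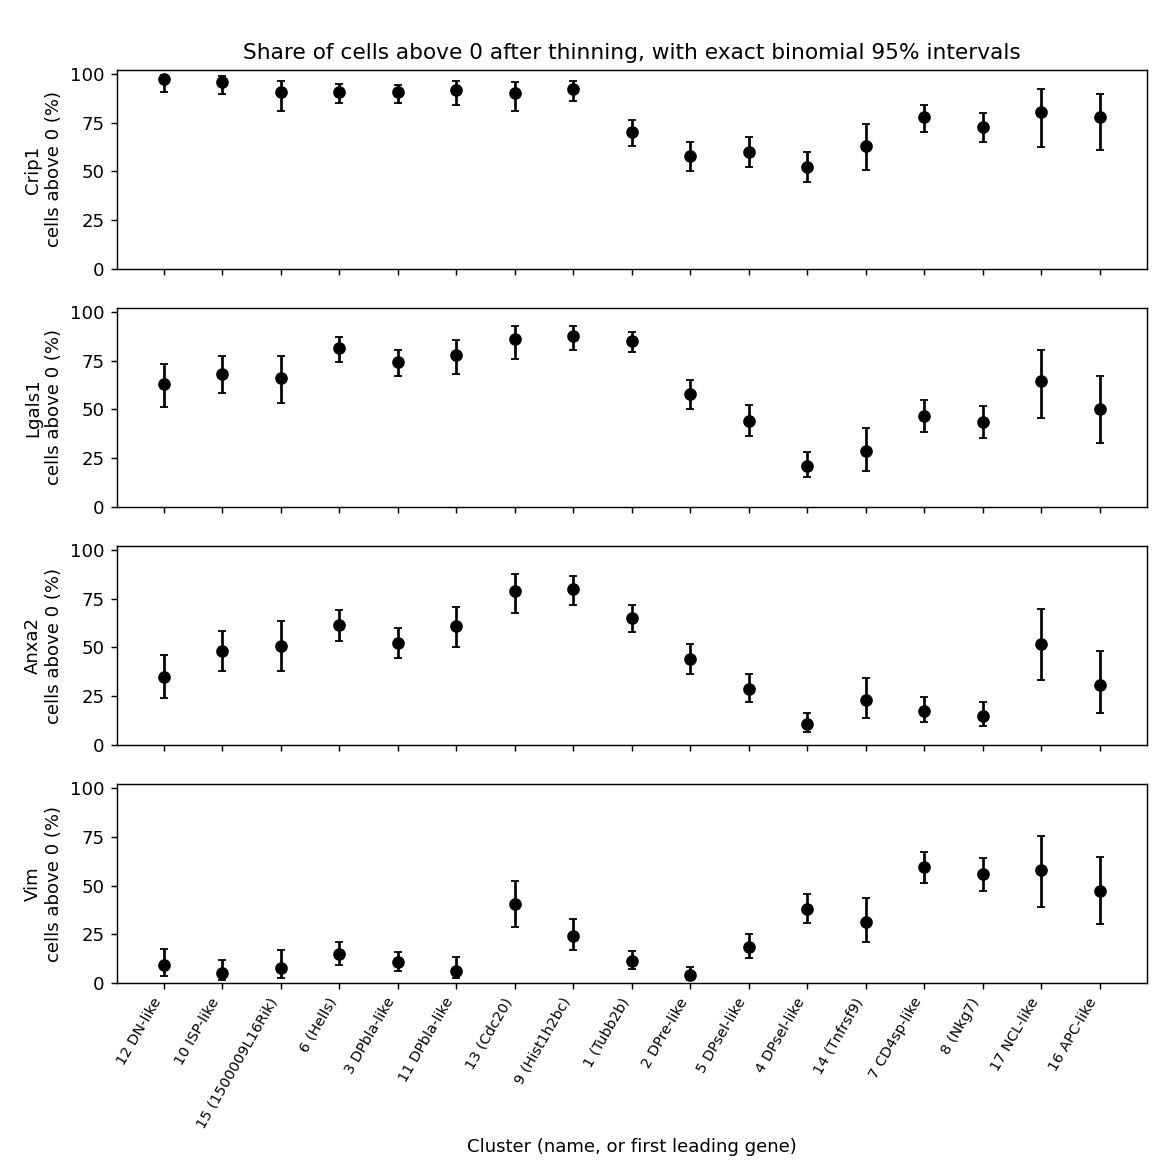
Percent of cells above 0 after thinning for Crip1, Lgals1, Anxa2 and Vim in each of the 17 clusters, with exact binomial 95% intervals. Lgals1 and Anxa2 have their low point in cluster 4 at 21.1 and 10.5%, Crip1 has a shallow trough over clusters 2, 5 and 4, and Vim is highest in cluster 7 at 59.5%.

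Differences between classes were set beside those of all genes above 0 in at least 10% of cells of either class, with 0.5 on the log2 scale as the size that counts. Since the members were chosen with these cells in view, their counts are descriptions. Between clusters 7 and 8 and DPre-like cells, 2 of the 7 members in this filter were higher, Vim by 1.27 (1.33 against 0.06) and Crip1 by 0.92 (2.05 against 1.13), and Anxa2 was lower, with a difference of -0.70 that was -0.39 on the scale of log2(steps + 1) after thinning. Of all 4766 genes 2.43% were higher and 1.74% lower. S100a4 and S100a6 did not pass the filter, being near 0 on both sides, and Vim passed it only through clusters 7 and 8, with 7.43% of DPre-like cells above 0. When cluster 1 was counted as DPre as well, Lgals1 was also lower, with a difference of -0.68 against -0.16 with cluster 2 alone. In 4 other clusterings DPre-like cells numbered 362 to 376, and the cells that stand for clusters 7 and 8 numbered 297 to 537. The Lgals1 difference lay between -0.94 and -0.66 in them.

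Against clusters 7 and 8, 5 of 9 members were higher in NCL-like cells and 0 lower, where 1.2% of 4925 genes were higher and 1.06% lower. S100a4 and S100a6 passed the filter only through NCL-like cells, where they are high, and S100a6 was part of the choice of members, so nothing is read from this count. The differences were 2.22 for S100a6, 1.79 for S100a11, 1.15 for S100a10, 0.78 for Anxa2 and 0.55 for S100a4. Crip1 at 0.48 and Lgals1 at 0.46 stayed just under the size rule, S100a13 was at 0.29, and Vim differed by -0.25. The smallest of these groups held 31 cells. After thinning, on the scale of log2(steps + 1), the difference of Anxa2 was 0.51 and that of S100a4 0.39, the latter under the rule.

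Cycling clusters against DPre-like cells gave 3 members that were higher and 0 lower, Crip1 by 2.09, Lgals1 by 1.07 and Anxa2 by 0.58, where 5.67% of 6767 genes were higher and 0.872% lower. Cycling cells had a median of 5803 steps and DPre-like cells 1950. On log2(steps + 1) after thinning only Crip1, at 1.07, was past 0.5, with Lgals1 at 0.39 and Anxa2 at 0.21. Members past the rule also had smaller differences on that scale where depth was more alike. Clusters 7 and 8 had a median of 2265 steps. Against DPre-like cells Vim there went from 1.27 to 0.78, Crip1 from 0.92 to 0.56 and Anxa2 from -0.70 to -0.39. The part of depth in these losses was not tested. DN-like against DPre-like cells gave 3 higher and 0 lower, Crip1 by 3.63, S100a11 by 0.86 and Lgals1 by 0.69, where 2.85% of 6242 genes were higher and 1.04% lower. After thinning S100a11 was at 0.40 and Lgals1 at 0.29, both under the rule, and Crip1 at 2.07. With clusters 1, 2 and 9 as DPre, chosen after seeing the data, the Lgals1 difference was -0.13. S100a10 differed by -0.45. Unnamed cluster 8 against CD4sp-like cluster 7 gave 0 of 7 members past the rule in either direction, where 0.166% of 4828 genes were higher and 0.207% lower. The largest member difference there was 0.32, for S100a10. With 30 principal components the groups of cells differed. The CD4sp class was then 2 clusters with 334 cells, against 148 in cluster 7, and the CD8sp class had 126 cells. These groups gave 2 members past the rule, both higher in the CD8sp class, Crip1 by 0.75 and Lgals1 by 0.60. The share over all genes there is not given.

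The 9 members were counted per cell. The mean number is the sum of the 9 thinned shares of a cluster, so it does not show whether members occur together. S100a6, high in NCL-like cells, was part of the choice of members and of the clustering. Within NCL-like cells 0 of 24 pairs of members had intervals apart. After thinning, an NCL-like cell had 5.68 ± 1.64 members above 0, with at least 3 in every one of the 31 cells, and 87.1% had 4 or more (70.2 to 96.4). Cluster 9 followed with 3.98 ± 1.17, then APC-like cells and cluster 13 with 3.86 ± 1.57 and 3.86 ± 1.08. DPsel-like cluster 4 was lowest with 2.26 ± 1.25, and 17.5% of its cells had 4 or more (12.2 to 24.1). DN-like cells had 3.09 ± 1.32 and cluster 7 had 3.25 ± 1.34. In the library as a whole a cell had 3.12 ± 1.34, and 1.71% of cells had none (1.18 to 2.38). Without thinning the means were between 3.21 in cluster 4 and 6.81 in cluster 17, and cycling cells were raised most, to 5.24.

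**Figure D4:**
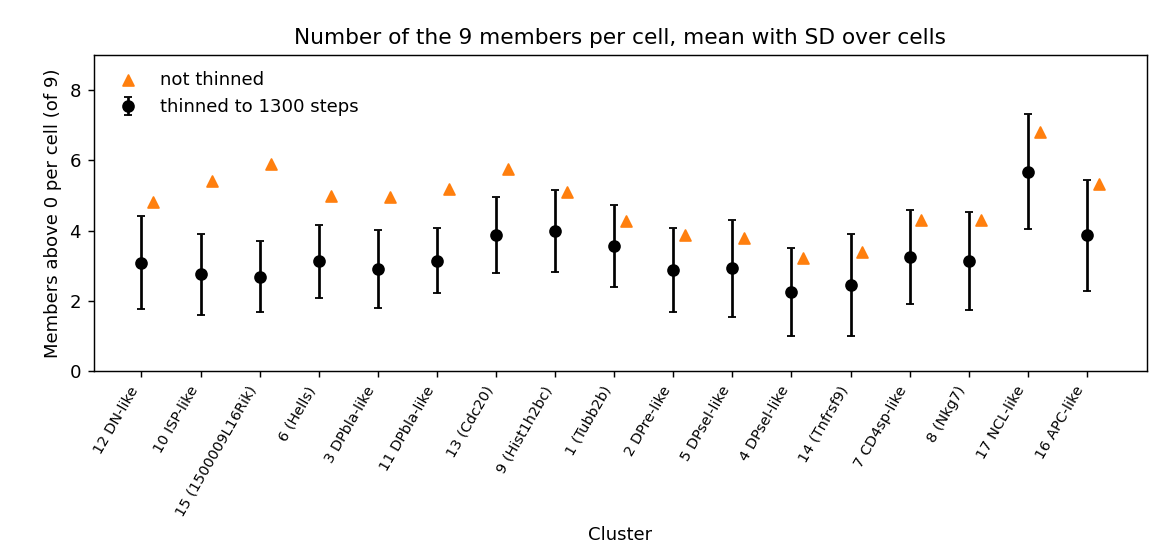
Number of the 9 members above 0 per cell in each cluster, as the mean with the SD over cells after thinning (circles) and as the mean without thinning (triangles). Cluster 17 lies highest at 5.68, and cluster 4 lowest at 2.26.

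For each member the genes with the most similar cluster means were looked up among 7029 genes above 0 in at least 20% of the cells of some cluster, over the 17 clusters of 1 library. S100a6 was most like Ly6c2 (r 0.985), Ahnak (0.983) and Ccl5 (0.983), and S100a4 most like Slamf7 (0.995), Fcer1g (0.994) and Fam46a (0.991). S100a11 was most like Hhex (0.951), Rgs2 (0.950) and Cd48 (0.945), and S100a10 like Ccser2 (0.914), Cited2 (0.900) and AI837181 (0.890). Lgals1 and Anxa2 had the same gene at the top, Ezr, which encodes the membrane linker ezrin (0.892 and 0.951), followed by Ly6e (0.889) and Atp5h (0.881) for Lgals1 and by Mns1 (0.899) and Rcbtb2 (0.892) for Anxa2. Crip1 was most like Trdc (0.889), Pgls (0.888) and H2afy (0.876), Vim like Gm20559 (0.940), Tnfaip8l2 (0.903) and Snhg17 (0.902), and S100a13 like Adgre5 (0.856), Ccnc (0.811) and Tspo (0.792). Among members, S100a4 and S100a6 had r of 0.934, which was 0.441 over the 15 clusters other than NCL-like and APC-like, whereas the r of Lgals1 and Anxa2 was 0.935 over all 17 and 0.934 over those 15.

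Relatives of the members were taken from a list of 37 genes, of which 14 were in the table. Against clusters 7 and 8, 2 of the 11 in the filter were higher in NCL-like cells (1.2% of all genes), Ahnak, a large scaffold protein that binds S100a10 and annexin A2, by 0.81 and Lgals3, galectin-3, by 0.56, and 0 were lower. Both passed the filter only through NCL-like cells, so nothing is read from this count, and after thinning they were at 0.55 and 0.34. In cycling against DPre-like cells 2 of 10 were higher (5.67% of all genes), the lamin gene Lmnb1 by 0.93 and Csrp1 by 0.51, which were 0.37 and 0.19 after thinning, under the rule, and in the other 3 contrasts 0 passed. Ahnak had its highest mean in cluster 17 (0.83, and at most 0.19 elsewhere) and Anxa6 too (0.82), whereas the highest means of Lgals3 (0.78), Anxa5 (0.70), Lgals3bp (0.41), Anxa7 (0.29) and Lmna (0.12) were in cluster 16. Lmnb1 (1.56) and Csrp1 (0.92) were highest in DPbla-like cluster 11, Lgals9 (1.01) and Anxa11 (0.23) in cluster 13, and Lgals8 (0.11), S100pbp (0.09) and Crip3 (0.07) were low throughout. The genes S100a8 and S100a9 were not among the 14.

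In the scATAC-seq table, signal at a member is the number of counts in the 4000 bp peak at its transcription start per 10000 counts in all peaks of the sort. A cell had a median of 2571 to 3935.5 counts in the 4 sorts and 5792 in total thymocytes. All 9 members had such a peak, which for S100a13 also covers the start of S100a1 and for S100a4 that of Gm42674. Vim had the most counts per 10000 in each sort, with 0.32 in DN, 0.29 in DP, 0.39 in CD4 and 0.32 in CD8 sorted cells. The promoter peak of S100a4 held 0 counts in all 542 sorted cells, with an interval that reaches 0.0333 per 10000 in DN sorted cells, and 5 counts in the 1084 total thymocytes (0.00781 per 10000). Its neighbour S100a6 had 8 counts in DN, 6 in DP, 3 in CD4, 3 in CD8 and 57 in total thymocytes, or 0.0722, 0.125, 0.0538, 0.0607 and 0.089 per 10000. Lgals1 had 29, 10, 15 and 11 counts in the sorts, 0.262, 0.209, 0.269 and 0.222 per 10000, values that all lay within each other's intervals, against 0.112 (0.088 to 0.142) in total thymocytes. The 15 counts of the CD4 sorted cells came from 4 cells.

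In the ratios formed between sorts no member differed beyond counting error. The ratio of CD4 and CD8 to DP sorted cells passed 1.5 in either direction for 2 of the 7 members with at least 10 counts, S100a6 and Anxa2, both at 0.454, where 39.9% of 9564 promoters did. Intervals were 0.122 to 1.7 for S100a6 and 0.149 to 1.39 for Anxa2. The ratio of DN to DP sorted cells passed it for 5 of 8 members, with 5.18 for S100a13 (12 against 1 count, interval 0.766 to 221), 1.87 for S100a11, 1.51 for S100a10, 0.604 for Crip1 and 0.575 for S100a6, where 41.1% of 10065 promoters did. Within either block of label numbers described below 1 member passed, and the share over all promoters there is not given. The ratio of Crip1 was 1.28 for numbers from 4000, and that of S100a6 was 1.29 with all peaks nearest to the gene. All 16 member ratios had intervals that included 1. Vim had a ratio of 1.23 (0.653 to 2.46) of CD4 and CD8 to DP sorted cells, and Crip1 one of 0.604 (0.165 to 2.41) in DN against DP sorted cells, so that a promoter ratio above 2.41 lies outside the interval.

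Cells of the sorts carry label numbers in blocks that differ in depth. The medians were 6870 counts in 32 DN sorted cells numbered from 4000 and 1261.5 in 24 numbered from 31000. Within the first block the SP over DP ratio was 0.475 for Lgals1 and 1.03 for Vim, and within the second 5.87 and 1.57. What the numbers stand for is not said in the labels, and their part in the ratios was not tested.

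**Figure D5:**
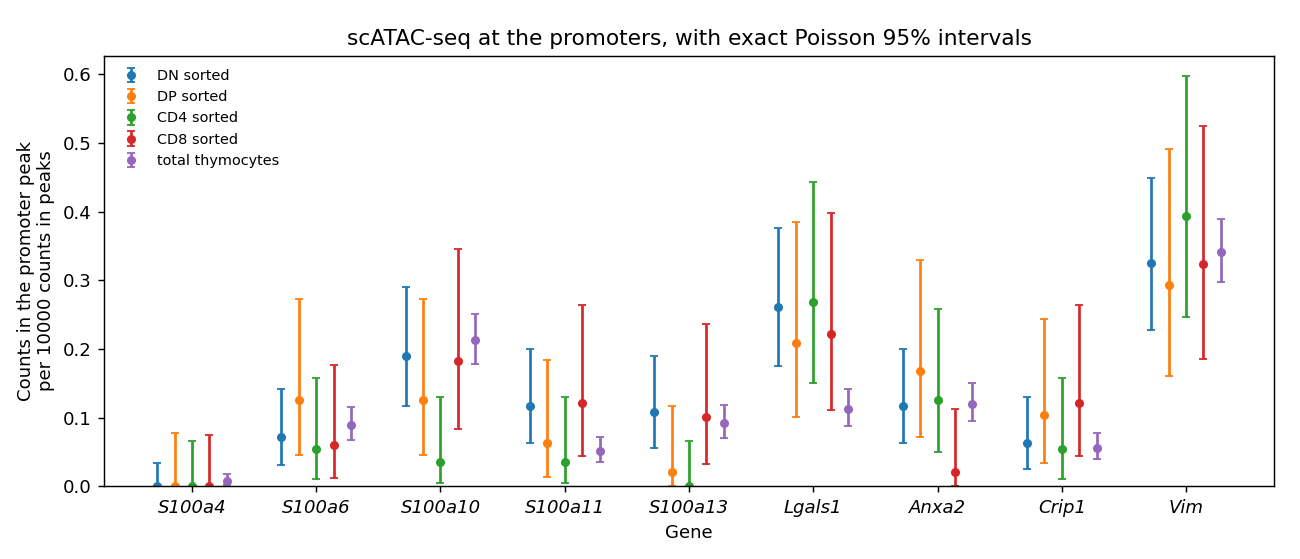
Counts in the promoter peak per 10000 counts in peaks for the 9 members in the 4 sorts and in total thymocytes, with exact Poisson 95% intervals. The intervals of the sorts overlap for each member shown, and S100a4 lies at 0 in the 4 sorts.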

How the data were processed

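For scRNA-seq the authors ran Cell Ranger 1.3.1 on GRCm38.p5 (the labels also list hg38), filtered cells and genes, quantile-normalised, and deposited log2 values in which zeros stay 0, so counts and depth are not held. For scATAC-seq the authors mapped trimmed reads (Bowtie2), dropped duplicates (Picard) and found peaks jointly over the cells (MACS2). The deposited values are unnormalised counts in peaks 4000 bp wide. The ATAC build is not given in the sources used here and was taken as GRCm38, because 23.2% of peak centres lay within 2000 bp of a start (GENCODE vM21, principal transcript) and 6.33% after moving them by 100000 bp. Of 1988 ATAC columns 362 were not used, 10 of no labelled group and 352 of total thymocytes named without a plate number.

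Cells were clustered in R 4.3.3 with Seurat 5.3.0 (20 principal components, resolution 2). Levels, shares and intervals were computed in Python 3.11.15 with numpy 2.4.6 and scipy 1.17.1, after being tested on simulated data. The 9 members, 37 relatives and 3 most similar genes per member were named. Members and lists were chosen with earlier results of these data known. The naming margin of 0.1 and the 50% Mki67 rule were set after the clusters were seen, so class names may differ from those of the study. No doublet caller was run. A step has no known number of molecules. The other split by a context gene with intervals apart is not reported here.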

Additional observations from a re-analysis of the deposited data

Results flagged for a closer look

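The promoter peak of S100a8, a neutrophil gene of the S100 family that was not in the scRNA-seq table, held 152 counts in total thymocytes, 0.237 per 10000 counts in peaks (0.201 to 0.278). The 4 sorts together held 7 counts in 542 cells, 0.0265 per 10000 (0.0107 to 0.0546), of which 5 came from 1 CD4 sorted cell and 2 from DN sorted cells. The CD4 sort was thus at 0.0896 (0.0291 to 0.209), an interval that overlaps that of total thymocytes. The result stands here because a signal appeared in cells outside the comparisons, above the level over the 4 sorts combined. The counts of total thymocytes came from 48 of 1084 cells, with 55 in 1 cell and 92 in the 4 cells with the most.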

How the results depend on the processing

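Of the alternatives tried, the counts of members past the size rule moved as follows. The shares of all genes or promoters under these alternatives are not given here, so nothing is read about the members from these counts. With 30 principal components, the CD8sp class against a CD4sp class of 2 clusters with 334 cells gave 2 members, where clusters 8 and 7 gave 0. On log2(steps + 1) after thinning, a scale on which 0.5 is not a like size, cycling against DPre gave 1 and DN against DPre 1. In each 3 were found before. With a size rule of 1, clusters 7 and 8 against DPre gave 1 (of 3), NCL against clusters 7 and 8 gave 3 (of 5) and DN against DPre 1. With clusters 1, 2 and 9 as DPre, chosen after seeing the data, cycling against DPre gave 1, and Lgals1 in DN against DPre turned to -0.13 from 0.69. Without thinning, a cycling cell had 5.24 members in place of 3.06 and a DN-like cell 4.81 in place of 3.09. In scATAC-seq, SP over DP gave 2 members, 1 for label numbers from 31000, 0 for CD4 sorted cells alone, 0 for CD8 sorted cells alone and 4 with all peaks nearest to the gene. With 1 sort alone S100a6 stayed at 0.428 (CD4) and 0.483 (CD8) and Anxa2 was at 0.75 (CD4) and 0.121 (CD8), but S100a6 in both and Anxa2 in CD8 held 9 counts, under the minimum of 10. DN over DP gave 5, and 1 with a size rule of 2, 1 for label numbers from 4000 and 1 from 31000. The ratio of S100a6 turned to 1.04 in SP over DP and 1.29 in DN over DP with all nearest peaks, and that of Crip1 in DN over DP to 1.28 for label numbers from 4000. The cause was not tested. Dropping from every cluster the 5% of cells richest in detected genes, as a guard against doublets, moved no count of members by more than 1.5 times. The contrast of clusters 8 and 7 was not run at resolution 1, where no CD8sp cluster was found. No paired analysis was possible because the results come from 1 library and from sorts with no named animal.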
